A study of Mus musculus with 9 samples.

Results

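The quiescence and niche genes of satellite cells, the resident stem cells of muscle, are described here as a set of 10 named genes, taken by symbol for their known roles. The choice was made with earlier results of these data known. The members are Foxo3, Spry1, Calcr, Cxcr4, Sdc4, Vcam1, Megf10, Cd34, Chrdl2 and Gas1. All 10 were found among the 22631 genes of the Mutant over Control table and among the 27775 genes of the PT over PUT table. The cells came from hindlimb muscle of 9-week-old mice. The 3 Mutant libraries are from mice that lack Uhrf1 in satellite cells after tamoxifen, given into the peritoneum on 5 days as 150 µl of 20 mg/ml to induce recombination by Cre. The 3 Cre Control libraries are from tamoxifen-treated mice and are not analysed here, because no column names them. The 3 Control libraries are from mice given oil, so tamoxifen and Uhrf1 loss cannot be told apart. Mutant and Control cells were grown on Matrigel for 3 days in 20% serum and 2% Ultroser G, a serum substitute, and were seeded at 5000 cells/cm2. They are therefore cultured cells and not freshly isolated ones. The labels name neither the Cre driver nor the alleles of any group, and do not say whether libraries came from separate animals.

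Satellite cells rest beneath the basal lamina of the muscle fibre, and after injury or explantation they enter the cell cycle, express Myod1 and multiply before they fuse or return to rest. Rest is held by signals from the niche through surface receptors and adhesion proteins, and by intracellular brakes on growth factor signalling. Several of the genes described here are known to fall soon after isolation. Uhrf1 recruits the maintenance DNA methyltransferase to newly copied CpG sites, and dividing cells that lack it lose CpG methylation.

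Gene values are the authors' means and comparisons, so no value of a single library and no spread between libraries can be given. Per the authors' deposited Mutant over Control table, Uhrf1 stood at 20.4 TPM (transcript abundance scaled for gene length and sequencing depth) in Mutant and 118 TPM in Control (adjusted p = 4.01e-06). Its standard error (SE) of 0.60 on the log2 scale was wide beside the median of 0.09 over genes averaging 10 TPM or more. Multiplying the Mutant and Control means between 100 and 1000 TPM by 3 made 99.9% of each whole at the fourth decimal, within 5e-06 TPM. Multiplying by 2 did so for 34.3% of the Mutant and 32.4% of the Control means. The means therefore hold 3 values each. The repeat counts of the same groups set the library labelled Control 3 apart. The retroviral repeat IAPEz-int took 9.29% to 16.3% of repeat counts in the Mutant libraries, against 13.1% (95% Wilson interval 13.1 to 13.2) in Control 3 and 0.501% and 0.675% in Control 1 and Control 2. The gene values cannot be recomputed without that library, and its part in the Control means below was not tested. By the authors' deposited PT over PUT table, Uhrf1 had a log2 fold change of -4.00 (SE 0.27), so PT is the arm with less Uhrf1. The labels do not say which samples the arms are or whether they share libraries with the Mutant over Control table.

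The members spanned about 3 orders of magnitude. Per the authors' deposited Mutant over Control table, Sdc4 was the most abundant, with 153 TPM in Mutant and 144 TPM in Control. Megf10 (107 and 77.5 TPM), Cxcr4 (95.4 and 64.7 TPM) and Vcam1 (57.9 and 75.8 TPM) followed, each given as Mutant and then Control, per the authors' deposited Mutant over Control table. Foxo3, Gas1 and Spry1 lay between 16.6 and 39.7 TPM per the authors' deposited Mutant over Control table. Cd34 and Chrdl2 lay between 1.81 and 3.23 TPM, and Calcr was at 0.135 TPM in Mutant and 0.175 TPM in Control, per the authors' deposited Mutant over Control table. The order of members at neighbouring levels cannot be tested without values per library. Megf10 and Vcam1 were close in Control, and the 3 lowest members stood well below the rest in both groups. The authors' deposited PT over PUT table gives 1 mean over both arms. Divided by the length of annotated exons, that mean was again highest for Sdc4, at 1076 normalised counts per kb, and lowest for Calcr, at 1.35. Cd34 and Chrdl2 had 6.37 and 3.43 normalised counts per kb in the authors' deposited PT over PUT table.

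**Figure D1:**
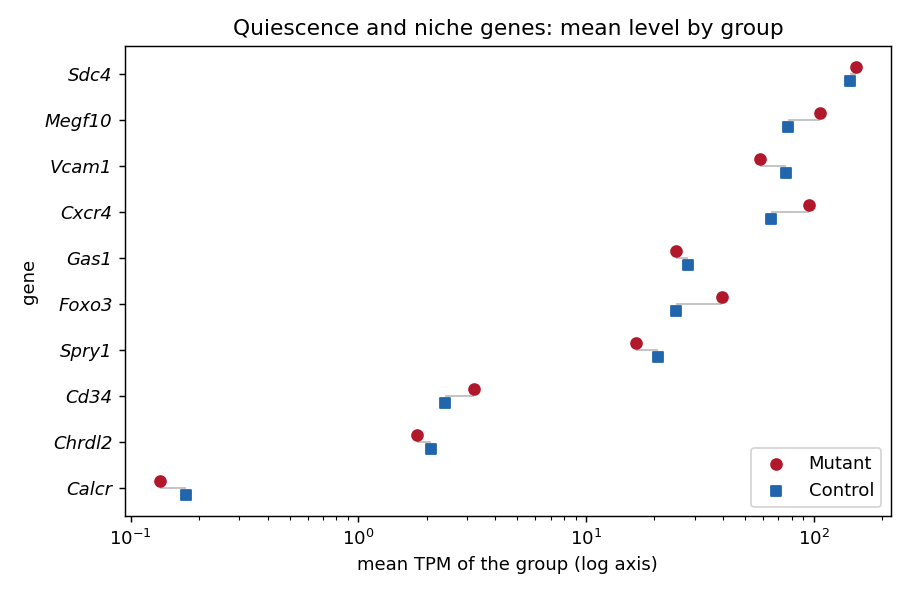
Mean TPM of each member (log axis) in Mutant (circles, upper) and Control (squares, lower); each mark is the authors' mean, with no error deposited. Sdc4 is at 153 and 144 TPM and Calcr at 0.135 and 0.175 TPM; Foxo3, Cxcr4 and Megf10 lie to the right of their Control marks and Vcam1 to the left.

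Across the set, 3 members rose in Mutant (Foxo3, Cxcr4 and Megf10), 1 fell (Vcam1) and 6 did not pass an adjusted p of 0.05 per the authors' deposited Mutant over Control table. Of all genes in that table, 17.1% passed, 9.02% higher and 8.11% lower. Of the genes averaging 10 TPM or more, a level that 7 members reached, 35.3% passed, 15.6% higher and 19.7% lower. The median test estimate of the 10 members was 0.03, beside 0.01 over all genes, per the authors' deposited Mutant over Control table. Over genes averaging 10 TPM or more the median was -0.03. The test estimate is the product of the deposited statistic and SE, a log2 fold change on the scale of the test, because the fold change column of that table is a ratio of mean TPM. From the authors' deposited PT over PUT table, 4 members were higher in PT (Foxo3, Cxcr4, Megf10 and Gas1), 2 were lower (Vcam1 and Sdc4) and 4 did not pass. That table called 47.2% of all its genes (25.1% higher and 22.1% lower) and 61.1% of those averaging 10 normalised counts or more (29.4% higher and 31.6% lower), so 6 of 10 is near its background. List counts in PT given below stand beside the same shares. The median log2 fold change of the members was 0.26, beside 0.14 over all genes, in the authors' deposited PT over PUT table. Over genes averaging 10 normalised counts or more the median was -0.01.

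**Figure D2:**
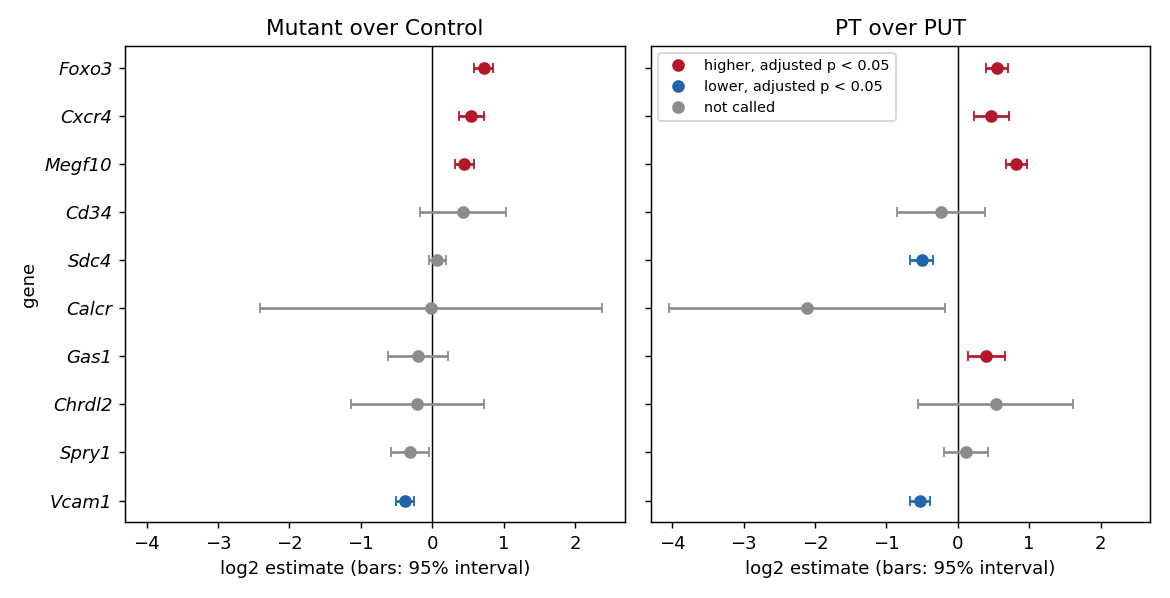
Log2 estimate of each member with 1.96 SE on each side, Mutant over Control on the left and PT over PUT on the right; red and blue mark adjusted p below 0.05, grey the rest. Foxo3 (0.72 and 0.55), Cxcr4 (0.55 and 0.47) and Megf10 (0.45 and 0.82) lie above 0 and Vcam1 (-0.38 and -0.53) below 0 in both panels.

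Foxo3 was the member with the largest increase in Mutant over Control. Foxo3 encodes a forkhead transcription factor that is held in the cytoplasm by insulin and growth factor signalling through AKT, and that supports satellite cell quiescence in mice. Its mean was 39.7 TPM in Mutant and 24.8 TPM in Control per the authors' deposited Mutant over Control table, a ratio of 1.60. The test estimate was 0.72 (SE 0.07, adjusted p = 1.92e-24 per the authors' deposited Mutant over Control table), rank 313 from the top among 8679 genes averaging 10 TPM or more. In the authors' deposited PT over PUT table the log2 fold change of Foxo3 was 0.55 (SE 0.08, adjusted p = 5.58e-11). Foxo3 lies on chromosome 10 from 42181841 to 42276755 on the minus strand (GRCm38) and shares no annotated exon with another gene.

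**Figure D3:**
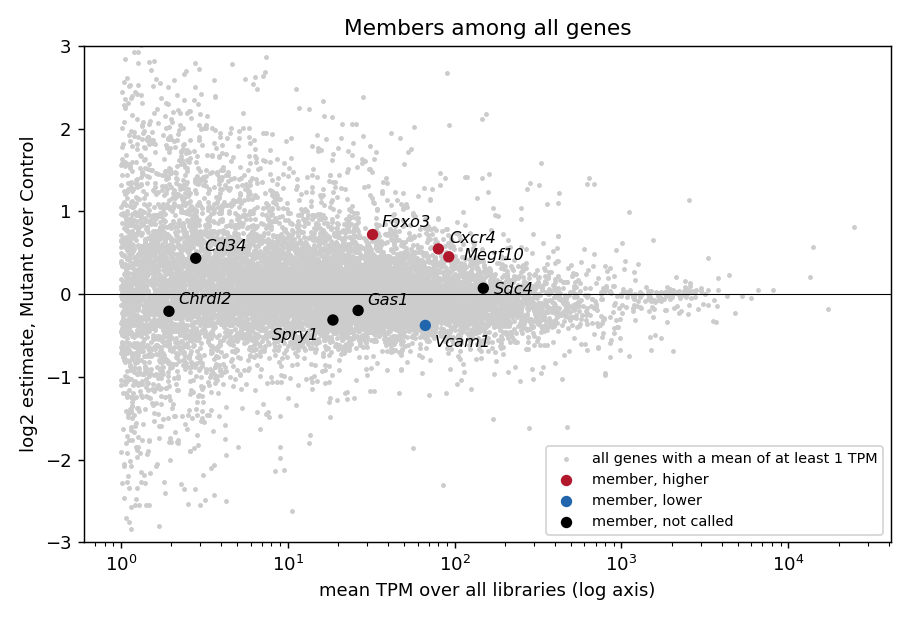
Test estimate of Mutant over Control against mean TPM over all libraries (log axis) for 13625 genes averaging 1 TPM or more (grey; 46 beyond 3 on either side are outside the axis) and for the 9 members at that level (red higher, blue lower, black not called). Foxo3 at 0.72, Cxcr4 at 0.55 and Megf10 at 0.45 lie above 0 and Vcam1 at -0.38 below it.

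The genes around Foxo3 went in both directions. Of 16 other FoxO factors and genes that FoxO proteins are known to activate, 5 rose and 3 fell per the authors' deposited Mutant over Control table, with a median test estimate of 0.01. This list had 50% called, against 17.1% of all genes and 35.3% of those averaging 10 TPM or more. Sesn3, a stress-induced inhibitor of the growth kinase mTORC1, was at 28.4 TPM in Mutant and 17.1 TPM in Control and rose (0.78, SE 0.08), and catalase (Cat) rose with 65.8 and 44.5 TPM (0.54, SE 0.09), per the authors' deposited Mutant over Control table. Sod2, the mitochondrial superoxide dismutase, fell, with 33.8 TPM in Mutant and 43.5 TPM in Control (-0.38, SE 0.07, per the authors' deposited Mutant over Control table). The FoxO factors themselves differed. Foxo4 fell, with 20.6 TPM in Mutant and 25.8 TPM in Control (-0.32, SE 0.11), and Foxo1, named after its values were seen, rose, with 12.4 and 7.40 TPM (0.73, SE 0.09), per the authors' deposited Mutant over Control table. By the authors' deposited PT over PUT table, Foxo1 was higher in PT (1.05, SE 0.11) and Foxo4 lower (-1.20, SE 0.10), with Sesn3 at 1.21 (SE 0.10) and Cat at 1.26 (SE 0.09). Of that list 7 were higher and 1 lower in PT, in the authors' deposited PT over PUT table.

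Spry1, the other intracellular member, did not pass in either table. Spry1 encodes Sprouty1, an inhibitor of receptor tyrosine kinase signalling that cycling satellite cells need in order to return to rest. Spry1 averaged 16.6 TPM in Mutant and 20.7 TPM in Control, with a test estimate of -0.31 (SE 0.13) an unadjusted p of 0.0199 and an adjusted p of 0.0987, per the authors' deposited Mutant over Control table. Spry1 spans 37639947 to 37644598 on the plus strand of chromosome 3 (GRCm38). From the authors' deposited PT over PUT table its log2 fold change was 0.12 (SE 0.16, adjusted p = 0.572). Of 16 genes of Sprouty and FGF signalling 6 rose, 0 fell and 10 did not pass per the authors' deposited Mutant over Control table, with a median test estimate of 0.15. That is 37.5% called, all higher, beside 15.6% called higher of genes averaging 10 TPM or more, a level that 11 of the 16 reached. Of all genes, 9.02% were called higher. Dusp4, a phosphatase that switches off MAP kinases, stood at 103 TPM in Mutant and 54.7 TPM in Control (0.90, SE 0.18), per the authors' deposited Mutant over Control table. Its relative Dusp6 had 21.7 and 17.0 TPM in Mutant and Control (0.39, SE 0.11), per the authors' deposited Mutant over Control table. Spry2 rose, with 122 TPM in Mutant and 96.5 TPM in Control (0.33, SE 0.07), and Spry4 with 17.1 and 14.0 TPM (0.28, SE 0.09), per the authors' deposited Mutant over Control table. PT over PUT values were 0.18 (SE 0.09) for Dusp4, 0.18 (SE 0.33) for Spry2 and 0.47 (SE 0.11) for Spry4 in the authors' deposited PT over PUT table, where Spry4 alone of these passed. Fgf2, a ligand that the pathway transmits and that was named after its values were seen, had 8.48 TPM in Mutant and 3.56 TPM in Control (0.71, SE 0.19), per the authors' deposited Mutant over Control table. Its ratio of mean TPM was 2.38, while the test estimate corresponds to 1.64 fold. Fgf2 was also higher in PT (2.12, SE 0.21), in the authors' deposited PT over PUT table. That list had 5 higher and 2 lower of 15 measured genes in the authors' deposited PT over PUT table.

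Calcr was close to undetected. It encodes the calcitonin receptor, which holds satellite cells at rest through cyclic AMP and protein kinase A and is known to be lost on activation. At 0.135 TPM in Mutant and 0.175 TPM in Control, its test estimate of -0.02 had an SE of 1.22 per the authors' deposited Mutant over Control table. The interval, 1.96 SE on each side, ran from -2.41 to 2.38, so a change of several fold in either direction was not detectable per the authors' deposited Mutant over Control table. In the authors' deposited PT over PUT table it had a mean of 5.29 normalised counts and a log2 fold change of -2.11 (SE 0.99, adjusted p = 0.0655). The gene spans 3685680 to 3764714 on chromosome 6 (minus strand, GRCm38) and holds the microRNA genes Mir489 and Mir653, whose levels are not analysed here. Of 16 other genes of calcitonin receptor and cyclic AMP signalling 4 rose and 0 fell per the authors' deposited Mutant over Control table, with a median test estimate of 0.17. The 25% called were all higher, beside 15.6% called higher of genes averaging 10 TPM or more, a level that 10 of the 16 reached. Of all genes, 9.02% were called higher. Crem, a cyclic AMP responsive transcription factor, had 14.3 TPM in Mutant and 8.73 TPM in Control (0.71, SE 0.20), per the authors' deposited Mutant over Control table. Wwtr1, a transcriptional coactivator of the Hippo pathway also called TAZ, had 40.1 and 28.9 TPM (0.45, SE 0.07), per the authors' deposited Mutant over Control table. The remaining genes that rose, named after their values were seen, were the related receptor Calcrl, with 4.68 TPM in Mutant and 2.89 TPM in Control (0.73, SE 0.22), and its accessory protein Ramp3, with 4.06 and 1.12 TPM (1.86, SE 0.50), per the authors' deposited Mutant over Control table. Crem (0.84, SE 0.24) and Wwtr1 (0.30, SE 0.08) were also higher in PT, among 8 higher and 2 lower of 15 measured, in the authors' deposited PT over PUT table. Type V collagen, a ligand of the calcitonin receptor in mouse satellite cells, was named after its values were seen. Col5a1 (0.06, SE 0.07), Col5a2 (-0.02, SE 0.05) and Col5a3 (0.13, SE 0.16) did not pass per the authors' deposited Mutant over Control table. All 3 chains were lower in PT, by log2 fold changes of -0.49 (SE 0.08), -1.24 (SE 0.05) and -1.30 (SE 0.15) in that order, in the authors' deposited PT over PUT table.

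The chemokine receptor rose and the adhesion ligand fell. Cxcr4 is the receptor for the chemokine Cxcl12 and is used as a surface marker to sort satellite cells. Cxcr4 averaged 95.4 TPM in Mutant and 64.7 TPM in Control per the authors' deposited Mutant over Control table (test estimate 0.55, SE 0.09, adjusted p = 2.73e-08), and it was higher in PT as well, by 0.47 (SE 0.13, adjusted p = 0.000598), in the authors' deposited PT over PUT table. Vcam1 is an immunoglobulin-like adhesion molecule that binds the integrin alpha4 beta1 and is the other common sorting marker. Per the authors' deposited Mutant over Control table Vcam1 averaged 57.9 TPM in Mutant and 75.8 TPM in Control (-0.38, SE 0.07, adjusted p = 2.51e-07). It was lower in PT, by a log2 fold change of -0.53 (SE 0.07, adjusted p = 1.22e-12), in the authors' deposited PT over PUT table. Cxcr4 spans 128588199 to 128592293 on chromosome 1 and Vcam1 116109949 to 116129688 on chromosome 3, both on the minus strand (GRCm38). Of 10 partners of CXCR4 and VCAM1, 2 rose and 0 fell per the authors' deposited Mutant over Control table. Their called share of 20%, all higher, stands beside 9.02% called higher of all genes and 15.6% of those averaging 10 TPM or more. Ackr3, a scavenger receptor for Cxcl12, had 54.0 TPM in Mutant and 30.7 TPM in Control (0.76, SE 0.23), and Gnai2, a G protein subunit downstream of chemokine receptors, had 279 and 235 TPM (0.29, SE 0.06), per the authors' deposited Mutant over Control table. Ackr3 was higher in PT (1.31, SE 0.10) and Gnai2 lower (-0.31, SE 0.07), among 4 higher and 3 lower of 10, in the authors' deposited PT over PUT table.

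Sdc4 and Megf10 were the most abundant members in Mutant. Sdc4 spans 164424247 to 164443887 on the minus strand of chromosome 2 (GRCm38). It is a heparan sulphate proteoglycan of the cell surface that presents growth factors and binds fibronectin. Its test estimate was 0.07 (SE 0.06, adjusted p = 0.59), with an interval from -0.05 to 0.19, per the authors' deposited Mutant over Control table. By the authors' deposited PT over PUT table Sdc4 was lower in PT, by -0.51 (SE 0.08, adjusted p = 9.22e-10), and the difference between the tables was not tested. Of 11 other syndecans, glypicans and their partners 5 rose and 2 fell per the authors' deposited Mutant over Control table, with a median test estimate of 0.20. The share called was 63.6%, beside 35.3% of genes averaging 10 TPM or more. Sdc3, the other syndecan known as a satellite cell marker, rose, with 257 TPM in Mutant and 172 TPM in Control (0.57, SE 0.06), per the authors' deposited Mutant over Control table. Sdc3 was also higher in PT (0.46, SE 0.06), in the authors' deposited PT over PUT table. Glypican 1 (Gpc1), named after its values were seen, fell, with 169 TPM in Mutant and 214 TPM in Control (-0.34, SE 0.05), per the authors' deposited Mutant over Control table. Ext1, an enzyme that polymerises heparan sulphate, had 57.5 and 38.6 TPM in Mutant and Control (0.60, SE 0.07), Sdc1 had 119 and 85.6 TPM (0.41, SE 0.07) and Gpc4 had 50.8 and 38.5 TPM (0.39, SE 0.08), per the authors' deposited Mutant over Control table. From the authors' deposited PT over PUT table Ext1 (-0.02, SE 0.07), Sdc1 (0.08, SE 0.07) and Gpc4 (-0.12, SE 0.08) did not pass, and 3 of the 11 were higher and 1 lower.

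Megf10 is a transmembrane receptor with EGF-like repeats that favours satellite cell proliferation over differentiation in mice, and it is mutated in a human congenital myopathy. Its means were 107 TPM in Mutant and 77.5 TPM in Control (test estimate 0.45, SE 0.07, adjusted p = 4.16e-09), per the authors' deposited Mutant over Control table. With 0.82 (SE 0.07, adjusted p = 1.51e-27) Megf10 had the highest log2 fold change of the members in the authors' deposited PT over PUT table. Megf10 spans 57133090 to 57297467 on the plus strand of chromosome 18 (GRCm38). Cd34, a sialomucin of the cell surface that marks resting satellite cells and also endothelial cells and fibroblasts, was low and did not pass. It stood at 3.23 TPM in Mutant and 2.39 TPM in Control (0.43, SE 0.31, adjusted p = 0.458) per the authors' deposited Mutant over Control table, and at -0.23 (SE 0.31, adjusted p = 0.586) in the authors' deposited PT over PUT table. Of 8 relatives of MEGF10 and CD34, 1 rose and 1 fell per the authors' deposited Mutant over Control table. At 25%, the share called lies between the 17.1% of all genes and the 35.3% of those averaging 10 TPM or more. Megf6, an EGF-repeat protein, was the member of that list with the level set for naming, and it fell, with 12.0 TPM in Mutant and 23.5 TPM in Control (-0.74, SE 0.16), per the authors' deposited Mutant over Control table. The gene that rose was Pear1, a receptor related to MEGF10 that was named after its values were seen, with 2.80 TPM in Mutant and 1.94 TPM in Control (1.38, SE 0.31), per the authors' deposited Mutant over Control table. For Pear1 the ratio of mean TPM was 1.45, while the test estimate corresponds to 2.59 fold. Megf6 did not pass in the authors' deposited PT over PUT table (-0.29, SE 0.18), where 3 of the 8 were higher in PT and 1 lower.

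Chrdl2 and Gas1 act outside the cell or at its surface. Chrdl2 encodes chordin-like 2, a secreted protein that binds bone morphogenetic proteins (BMPs). It was at 1.81 TPM in Mutant and 2.08 TPM in Control (-0.21, SE 0.47, adjusted p = 0.926) per the authors' deposited Mutant over Control table, and at 0.53 (SE 0.56, adjusted p = 0.468) in the authors' deposited PT over PUT table. Of 16 other BMP antagonists and signalling genes 6 rose and 0 fell per the authors' deposited Mutant over Control table, with a median test estimate of 0.20. Called genes made up 37.5%, all higher, beside 15.6% called higher of genes averaging 10 TPM or more. Of the 16, 7 reached that level, and of all genes 9.02% were called higher. Follistatin (Fst), which binds activin and myostatin, had 17.5 TPM in Mutant and 10.8 TPM in Control (0.65, SE 0.19), and Fstl1, a related secreted protein, had 60.8 and 43.1 TPM (0.46, SE 0.10), per the authors' deposited Mutant over Control table. Id3 and Id1, direct targets of BMP signalling that restrain Myod1, rose slightly, Id3 with 542 TPM in Mutant and 466 TPM in Control (0.22, SE 0.05) and Id1 with 376 and 321 TPM (0.21, SE 0.06), per the authors' deposited Mutant over Control table. Fstl1 was also higher in PT (0.42, SE 0.11) and Id1 lower (-0.36, SE 0.07), among 6 higher and 3 lower of 16, in the authors' deposited PT over PUT table.

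Gas1 is a membrane-anchored protein that acts as a co-receptor for Hedgehog ligands and that binds RET, the receptor for GDNF family ligands. It averaged 24.7 TPM in Mutant and 28.1 TPM in Control (-0.20, SE 0.22, adjusted p = 0.739) per the authors' deposited Mutant over Control table, and it was higher in PT by 0.40 (SE 0.13, adjusted p = 0.00635) in the authors' deposited PT over PUT table. Of 15 Hedgehog and GDNF pathway genes 2 rose and 1 fell per the authors' deposited Mutant over Control table. With 20% called, this list is near the 17.1% of all genes. Boc, another Hedgehog co-receptor, had 15.8 TPM in Mutant and 10.9 TPM in Control (0.51, SE 0.12), and Ptch1, the Hedgehog receptor and a target of the pathway, had 13.6 and 19.2 TPM (-0.48, SE 0.10), per the authors' deposited Mutant over Control table. Ret, named after its values were seen, had 12.3 TPM in Mutant and 4.86 TPM in Control (1.34, SE 0.16) per the authors' deposited Mutant over Control table. Boc (0.37, SE 0.11) and Ret (0.47, SE 0.15) were higher in PT and Ptch1 did not pass (-0.23, SE 0.11), in the authors' deposited PT over PUT table. Another annotated gene shares 589 exon bases with Gas1 on the other strand, and the like holds for Spry1 (710 bases), Cd34 (148) and Vcam1 (61). The sources used here do not state whether the authors' counting used strand, so reads of those partners cannot be told apart from reads of the members.

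Since Uhrf1 acts at CpG sites, CpG content was counted in RefSeq promoter windows (GRCm38.p6), the 250 bases before a RefSeq start. Such windows exist for 7 of the 10 members (all but Vcam1, Megf10 and Chrdl2). Over all 32851 windows the median was 6 CpG, with the middle 50% between 2 and 16. Foxo3 had 31 CpG, more than 94.8% of all windows, and Cxcr4 had 19, more than 80.3% of them. Spry1 (23), Sdc4 (19) and Gas1 (10) did not pass in the Mutant over Control table and also lay above the median. Cd34 had 6, and the starts of Calcr had 24 and 2. The windows of Sdc4 and of the Calcr start with 24 CpG lie inside the gene spans given above, not upstream of the gene. High CpG counts were thus found before RefSeq starts of members that rose and of members that did not. No methylation was measured, so nothing can be said of how these sites were marked. The stretches upstream of Foxo3 and Cxcr4, which rose in both tables, are printed 5′ to 3′ beside that of Cd34, the median case, with each CpG in capitals. Bases that GENCODE counts as exon are left out (60 for Foxo3 and 2 for Cd34), which leaves 28, 19 and 6 CpG.
Foxo3 (chr10:42276756-42276945, minus strand): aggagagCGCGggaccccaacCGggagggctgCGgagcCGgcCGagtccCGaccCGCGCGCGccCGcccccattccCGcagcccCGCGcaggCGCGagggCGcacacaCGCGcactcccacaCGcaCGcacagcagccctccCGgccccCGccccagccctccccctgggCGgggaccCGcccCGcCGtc
Cxcr4 (chr1:128592300-128592549, minus strand): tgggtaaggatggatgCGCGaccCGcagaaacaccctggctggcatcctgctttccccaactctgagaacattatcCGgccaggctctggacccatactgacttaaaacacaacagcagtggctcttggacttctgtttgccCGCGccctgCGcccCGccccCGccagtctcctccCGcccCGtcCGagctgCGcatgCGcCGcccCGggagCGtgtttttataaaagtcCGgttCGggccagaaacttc
Cd34 (chr1:194938571-194938818, plus strand): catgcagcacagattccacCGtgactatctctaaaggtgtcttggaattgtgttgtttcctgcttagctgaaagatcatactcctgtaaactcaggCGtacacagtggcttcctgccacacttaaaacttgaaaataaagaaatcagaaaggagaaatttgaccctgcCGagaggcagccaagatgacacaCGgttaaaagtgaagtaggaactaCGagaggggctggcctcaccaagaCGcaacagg
The density was 14.7, 7.60 and 2.42 CpG per 100 bases in the stretches of Foxo3, Cxcr4 and Cd34. Exact matches on either strand were also searched for the FoxO element GTAAACA, the E-box CAGCTG and the TATA box TATAAA, which 3.17%, 13.0% and 12.4% of all windows hold. Among the members' windows only that of Cxcr4 held any of these, the TATA box.

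**Figure D4:**
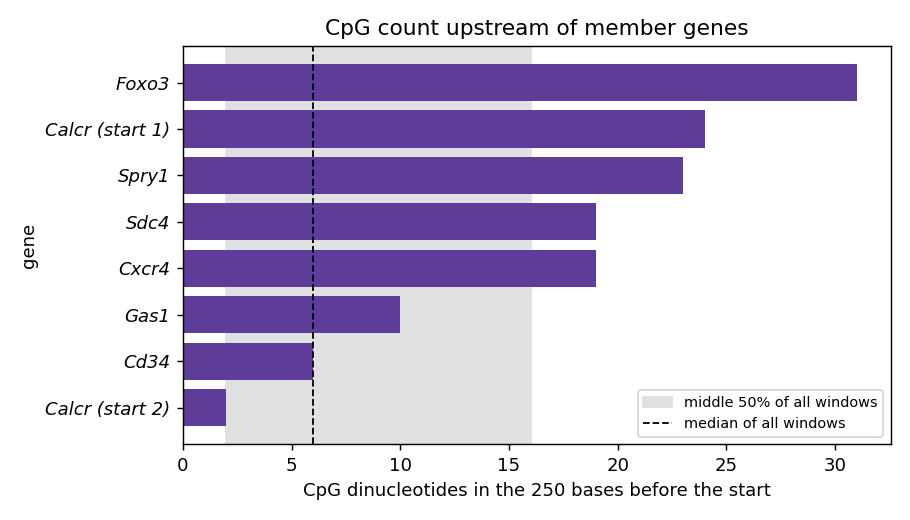
Number of CpG dinucleotides in the 250 bases before each RefSeq start of the 7 members with a window; the dashed line is the median of all 32851 windows (6) and the grey band their middle 50% (2 to 16). Foxo3 has 31, Cxcr4 and Sdc4 have 19 each, Cd34 has 6, and the starts of Calcr have 24 and 2. The windows of Sdc4 and of the Calcr start with 24 lie inside the annotated gene.

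Genes tied to satellite cell quiescence beyond the members went in both directions. Of 28 such genes, 11 rose and 6 fell per the authors' deposited Mutant over Control table, with a median test estimate of 0.20. In all 60.7% passed, beside 35.3% of genes averaging 10 TPM or more. Of those that passed, Pax7, Cdh15 and Itga7 are also counted among the satellite cell markers below. Rgs5 is also counted with smooth muscle and pericytes below, and Sdc3 with the syndecans above. Notch3, a receptor that restrains satellite cell proliferation, rose, with 31.4 TPM in Mutant and 18.3 TPM in Control (0.77, SE 0.06), and Hes1, a transcriptional effector of Notch, rose with 44.4 and 32.5 TPM (0.46, SE 0.12), per the authors' deposited Mutant over Control table. Cav1, the main protein of caveolae, fell, with 170 TPM in Mutant and 282 TPM in Control (-0.56, SE 0.07), per the authors' deposited Mutant over Control table. In the authors' deposited PT over PUT table, 11 of the 28 were higher and 11 lower, with Notch3 lower (-0.34, SE 0.07), Cav1 higher (0.35, SE 0.07) and Hes1 not past the threshold (-0.11, SE 0.12). Of 15 satellite cell activation genes, 0 rose, 9 fell and 6 did not pass per the authors' deposited Mutant over Control table, with a median test estimate of -0.31, led by the cell cycle genes Ccna2 (109 TPM in Mutant and 178 TPM in Control), Cdk1 (242 and 357 TPM) and Top2a (252 and 342 TPM). The 60% called, all lower, stand beside 19.7% called lower of genes averaging 10 TPM or more, a level that 14 of the 15 reached. The 6 that did not pass, named after their values were seen, were Myf5, Myc, Fos, Jun, Ccnd1 and Ccnd2. Their test estimates ran from -0.28 (SE 0.20, Ccnd2) to 0.67 (SE 0.27, Fos), per the authors' deposited Mutant over Control values. Myod1, 1 of the 9 that fell, and Myf5 are also counted among the satellite cell markers below. Dek, a chromatin protein induced when satellite cells activate, fell with them, at 115 TPM in Mutant and 152 TPM in Control (-0.47, SE 0.07), per the authors' deposited Mutant over Control table. The activation list was split in the authors' deposited PT over PUT table, with 6 higher and 6 lower. There Dek (0.66, SE 0.08) and Cdk1 (0.92, SE 0.09) were higher in PT, Top2a was lower (-0.24, SE 0.06) and Ccna2 did not pass (0.12, SE 0.07).

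**Figure D5:**
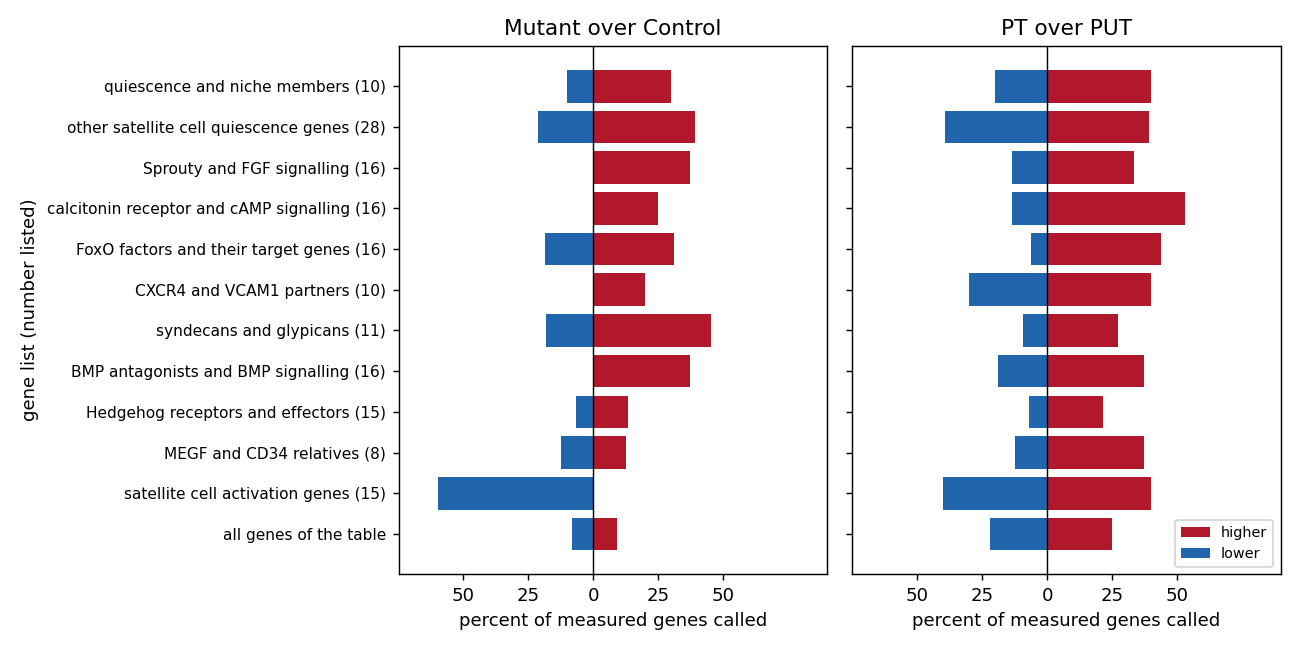
Percent of measured genes of each list called higher (red, right) or lower (blue, left) at adjusted p below 0.05, Mutant over Control on the left and PT over PUT on the right; the bottom row is all genes of the table. The members have 3 higher and 1 lower of 10 in Mutant over Control and 4 higher and 2 lower in PT over PUT, and all genes have 9.02% and 8.11%, and 25.1% and 22.1%.

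Satellite cell identity markers were abundant in both groups. All 6 satellite cell markers averaged 10 TPM or more, and their summed level was 2373 TPM in Mutant and 2419 TPM in Control per the authors' deposited Mutant over Control table. Pax7 rose, with 29.6 TPM in Mutant and 23.1 TPM in Control (0.35, SE 0.08), and Cdh15 and Itga7, adhesion genes of satellite cells, fell (-0.31, SE 0.09, and -0.23, SE 0.06), per the authors' deposited Mutant over Control table. Myod1, the factor that commits cells to the muscle lineage, stood at 914 TPM in Mutant and 1018 TPM in Control and fell (-0.17, SE 0.05), per the authors' deposited Mutant over Control table. Desmin (Des), an intermediate filament protein of muscle, had 892 TPM in Mutant and 763 TPM in Control and rose (0.19, SE 0.06), per the authors' deposited Mutant over Control table. Most of the marker sum was thus Myod1 and Des, which went in opposite directions. By the authors' deposited PT over PUT table Pax7 (-0.43, SE 0.10), Cdh15 (-0.67, SE 0.10), Itga7 (-1.09, SE 0.07) and Des (-0.78, SE 0.07) were lower in PT. With Myod1, 5 of the 6 markers were lower in PT, and Myf5, a muscle lineage factor named after its values were seen, was higher (0.83, SE 0.11), in the authors' deposited PT over PUT table. Vcam1, Cxcr4 and Cd34 are also expressed by leukocytes or endothelial cells. Of 8 measured macrophage and leukocyte markers 2 rose (Laptm5 and Cd68) and 0 fell, and they summed to 112 TPM in Mutant and 32.6 TPM in Control, per the authors' deposited Mutant over Control table. Most of that was Laptm5, with 84.8 TPM in Mutant and 25.1 TPM in Control (1.75, SE 0.62), per the authors' deposited Mutant over Control table. Markers that did not pass, named after their values were seen, were Fcer1g, with 19.3 TPM in Mutant and 3.22 TPM in Control, Lyz2 (0.608 and 0.197 TPM), Csf1r (0.430 and 0.156 TPM) and Ptprc (0.303 and 0.381 TPM), per the authors' deposited Mutant over Control table. The 10 endothelial markers summed to 23.9 TPM in Mutant and 30.7 TPM in Control, with 0 higher and 2 lower (Pecam1 and Cdh5), per the authors' deposited Mutant over Control table. The 10 markers of fibroblasts and fibro-adipogenic progenitors summed to 239 and 237 TPM with 0 called, of which Col3a1 alone made up 181 and 179 TPM, and the 8 of smooth muscle and pericytes to 466 and 459 TPM with 1 higher (Rgs5), of which Acta2 alone made up 421 and 422 TPM, each in Mutant and then Control, per the authors' deposited Mutant over Control table. From the authors' deposited PT over PUT table, 3 of 5 measured macrophage markers were higher in PT (Laptm5, Fcer1g and Lyz2) and 1 lower (Csf1r), 4 of 9 endothelial markers were higher, 2 of 8 fibroblast markers were higher and 1 lower, and 5 of 8 smooth muscle markers were higher. Mean normalised counts in the authors' deposited PT over PUT table were 2.26 for Lyz2, 29.4 for Fcer1g and 555 for Laptm5. The endothelial markers had means of 5.39 to 44.6 there, so several of these calls rest on low counts. The part of such cells in the values of Vcam1, Cxcr4 and Cd34 was not tested. In bulk RNA, fewer cells of a type cannot be told apart from less RNA per cell.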

How the data were processed

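RNA of Mutant and Control cells went through removal of ribosomal RNA and a strand-specific library kit before paired reads of 150 bases, per the labels' protocols. The submitters' processing notes list Trim Galore 0.6.6, STAR 2.7.6a, HISAT2 2.2.1 (Cre Control), featureCounts 2.0.1 and DESeq2, and the build GRCm38. The authors deposited mean TPM per group, a log2 ratio of mean TPM with 1 added to each, p-values, and an SE and statistic (score values) per gene. The authors deposited for PT over PUT a mean signal, that is, normalised counts averaged over libraries, with a log2 fold change, SE, statistic and p-values. Whole-number counts per repeat subfamily, also deposited, gave shares per library over 1794698 to 2245124 counts, with intervals for counting error only. Gene depth per library is unknown.

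No test was refitted across genes. Calls are the authors' adjusted p below 0.05, and p-values weigh a difference against the spread between libraries, which may be technical. Where a symbol stands on 2 rows, the row with the higher mean was used. Readjustment was checked on simulated p-values. Genes were placed by GENCODE M21, and promoters came from RefSeq. Besides the members, at most 4 genes of each list with a level of 10 TPM or more and an adjusted p below 0.05 are named, those with the largest test estimates. Genes marked so in the text, and Myod1, Cd68, Pecam1, Cdh5, Rgs5, Col3a1 and Acta2, lie outside that rule and were named after their values were seen. The members and lists were chosen with earlier results of these data known. Python 3.11.15 and pandas 2.3.3 were used.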

Additional observations from a re-analysis of the deposited data

How the results depend on the processing

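Each member kept its call and direction in both tables at an adjusted p of 0.01, under Benjamini-Hochberg adjustment recomputed over all genes, over genes averaging 1 TPM or 10 normalised counts or more, and, for Mutant over Control, by the ratio of mean TPM. Calcr fell under both filters and was not called in either table. Without a pseudocount the log2 ratio of mean TPM of Calcr was -0.38, against -0.05 with 1 TPM added, which shows how the deposited ratio shrinks a low gene. All 28 recomputed counts of members and of all listed genes together stayed within 1.5 times the main count. Of the smaller counts per list and the values per gene, 292 kept their direction and call or stayed within 1.5 times the main count, some with small shifts, and 6 list counts moved further, 3 of them marker lists at an adjusted p of 0.01 in Mutant over Control. No paired analysis was possible because the gene tables hold comparisons with no values per library. For the same reason no library could be left out.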
